A study of Homo sapiens with 12 samples.

Results

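The genes described here encode histone lysine demethylases and methyltransferases other than JMJD3 and its paralog KDM6A, together with JmjC relatives that act mainly on other substrates. They were taken by symbol from a list of 33 genes: histone lysine demethylases of the KDM1 to KDM5, KDM7 and KDM8 families with their JmjC relatives, the H3K4 methyltransferases, and 4 methyltransferases of H3K36 or H3K79. All 33 had a row in each deposited table, out of 60660 genes shared by the tables. The question was whether the RNA of these enzymes moved when JMJD3 was raised or lost, as it might if related enzymes made up for the change.

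Total RNA was sequenced from HL-60, an established human promyelocytic leukaemia line, in 12 libraries of 4 groups. The first comparison set HL-60 transduced to overexpress JMJD3 against HL-60 that received the control vector; the second set JMJD3 knockout HL-60 against the parental line. Each group had 3 libraries. No group received a drug or a differentiating agent per the labels, which name neither the guide nor the clone behind the knockout and do not say how many clones were used. Whether replicates came from separate cultures is not stated, and the p-values therefore reflect library-to-library spread that could be technical only. The libraries held 26861304 to 43647715 expected counts each. In the overexpression table, replicate 1 resembled replicate 2 of its group (a per-gene chi-square of 1.67 for JMJD3-overexpressing cells and 1.95 for vector cells, with 1 standing for counting noise), and replicate 3 lay far from both (30.6 to 39.6). Of 10 promyelocyte markers, 9 were at 1 CPM or more in every group, and ELANE was at or near 0. Summed, they were at 9550 to 10911 CPM in JMJD3-overexpressing cells against 18408 to 23485 CPM in vector cells, and at 11853 to 12712 CPM in JMJD3 knockout cells against 13068 to 13519 CPM in parental cells. Of 10 markers of other lineages, HBB and MS4A1 were at 0 in all groups, and the sum, most of it PECAM1, was at 54.2 to 55.4 CPM in JMJD3-overexpressing cells against 23.3 to 25.1 CPM in vector cells, and at 15.8 to 16.5 CPM in JMJD3 knockout cells against 19.3 to 21.2 CPM in parental cells. Both marker sums moved with the groups, and their part in the results below was not tested. In such bulk libraries, fewer cells of a type and less RNA per cell cannot be told apart.

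Methyl groups on histone lysines are placed by enzymes with a SET domain (or by DOT1L, which has none) and taken off by flavin enzymes of the KDM1 family or by JmjC enzymes, which use iron, oxygen and 2-oxoglutarate. Methylation of H3K4 marks active promoters and enhancers, that of H3K36 and H3K79 marks transcribed gene bodies, and that of H3K9 and H3K27 marks silent chromatin. JMJD3, the product of KDM6B, removes methyl groups from H3K27, and its paralog KDM6A sits in a complex with the enhancer methyltransferases KMT2C and KMT2D. Several of these enzymes are known from leukaemia: KMT2A by its fusions, DOT1L as the enzyme such fusions draw on, and KDM1A as a drug target in acute myeloid leukaemia.

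The stretch before the transcription start is shown for KDM7A, the member with the largest fold change in JMJD3-overexpressing cells, for KMT2D, which moved in opposite directions in the comparisons, and for KDM4A, which fell in JMJD3 knockout cells in all settings tried. The sequences are from RefSeq (GRCh38.p14), read 5′ to 3′ on the gene's own strand. They end at the start annotated by RefSeq or, for KDM7A, before the first base that GENCODE 29 places in a KDM7A exon. GENCODE 29 places the start of KMT2D further downstream, at chr12:49059774, so the KMT2D stretch does not reach that start. They lie at chr7:140177036-140177233 (minus strand, 198 bases), chr12:49060795-49061044 (minus strand, 250 bases) and chr1:43649899-43650148 (plus strand, 250 bases). Capitals mark the GC box (GGGCGG), the CCAAT box (CCAAT), the E-box (CACGTG) and the core of the hypoxia response element (ACGTG), each on either strand; ACGTG lies within CACGTG and is then counted for both.
KDM7A: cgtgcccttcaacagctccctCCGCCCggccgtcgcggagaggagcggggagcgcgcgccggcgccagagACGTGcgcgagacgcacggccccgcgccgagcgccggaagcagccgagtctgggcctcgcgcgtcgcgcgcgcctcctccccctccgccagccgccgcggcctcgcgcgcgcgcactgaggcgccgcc
KMT2D: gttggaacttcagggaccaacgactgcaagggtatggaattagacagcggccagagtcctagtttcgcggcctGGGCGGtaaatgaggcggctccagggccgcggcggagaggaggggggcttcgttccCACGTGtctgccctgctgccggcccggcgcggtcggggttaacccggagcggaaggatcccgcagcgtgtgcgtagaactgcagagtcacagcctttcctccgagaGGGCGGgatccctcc
KDM4A: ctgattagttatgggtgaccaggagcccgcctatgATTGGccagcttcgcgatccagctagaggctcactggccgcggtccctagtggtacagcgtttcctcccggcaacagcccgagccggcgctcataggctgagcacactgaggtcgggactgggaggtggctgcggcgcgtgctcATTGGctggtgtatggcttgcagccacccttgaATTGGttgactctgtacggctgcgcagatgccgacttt
The KDM7A stretch was 81.3% G and C and held 1 GC box and 1 ACGTG. The KMT2D stretch was 65.6% G and C and held 2 GC boxes and 1 CACGTG. The KDM4A stretch, at 61.2% G and C, held 3 CCAAT boxes and no GC box. RefSeq gave such a stretch of 250 bases for 29 of the 33 genes, leaving out JMJD6, HR, SETD1B and DOT1L. A GC box was found in 20 of the 29 (69.0%), against 42.6% of all 35116 promoters of the same length. CCAAT was found in 6 (20.7%, against 11240 of the 35116), CACGTG in 4 (13.8%, against 6.3%) and ACGTG in 6 (20.7%, against 18.5%). The median G and C content was 65.6% over the 29 and 58.0% over all promoters. These matches describe the letters only.

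The targeted gene followed the labels in CPM in all 12 libraries, but not in FPKM in 1 of them. KDM6B was at 98.0, 99.5 and 83.9 CPM (expected counts relative to library size, scaled by TMM within a table) in the JMJD3-overexpressing libraries, against 35.2, 34.8 and 24.7 CPM in the vector libraries. It was at 37.2, 45.2 and 36.9 CPM in the JMJD3 knockout libraries, against 56.6, 56.6 and 59.0 CPM in the parental libraries, so its RNA was still made in cells labelled as knockout. The log2 fold changes were 1.57 ± 0.148 (SE, adjusted p = 0.000129) and -0.53 ± 0.070 (adjusted p = 2.44e-05). In FPKM, KDM6B was at 6.31, 11.36 and 6.14 in the JMJD3 knockout libraries, against 11.001, 11.01 and 10.37 in the parental libraries, so the library labelled knockout replicate 2 stood above all 3 parental libraries on that scale. The knockout call was lost in all 3 settings on FPKM. In the knockout comparison, 10 of the 33 enzymes were called without knockout replicate 2 (36.7% of all genes), the same number as with it. The set differed: KMT2E was no longer called (adjusted p = 0.062) and KDM3B was (adjusted p = 0.0163). The calls were then 3 up and 7 down, against 2 up and 8 down with that library. KDM6A, the paralog of KDM6B and also an H3K27 demethylase, rose by 0.41 ± 0.099 with JMJD3 overexpression (adjusted p = 0.0102), a call lost in 4 settings, and fell by 0.24 ± 0.068 in knockout cells (adjusted p = 0.0121), a call lost in 5 settings.

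Few of the 33 enzymes moved far. With JMJD3 overexpression, KDM7A and HR rose strongly, JMJD6, HIF1AN and KDM2A rose by less than 0.6 on the log2 scale, and 9 enzymes fell by 0.23 to 0.73, among them SETD1A, SETD1B, KMT2D and KMT2A, which methylate H3K4. In JMJD3 knockout cells KDM7A and HR fell strongly, KDM4A, KDM2B, JMJD1C, KDM4B, KDM5B and KMT2E fell by 0.15 to 0.47, and JMJD8 and KMT2D rose by 0.20 and 0.22. In all, 14 of the 33 (42.4%) were called with JMJD3 overexpression at an adjusted p under 0.05, where 50.3% of the 14322 genes tested were called, and 10 (30.3%) in JMJD3 knockout cells, where 37.8% of 14186 genes were called. The members' shares thus lay near or below those of all genes. Of all genes, 26.4% rose and 23.9% fell with overexpression, and 17.6% rose and 20.2% fell with knockout. The median log2 fold change of the 33 was -0.02 with overexpression and 0.011 with knockout, and the median size of the change was 0.23 against 0.37 over all genes, and 0.097 against 0.18. All 33 passed the filter on low counts in each comparison. Changes of 0.5 or more on the log2 scale were called for 6 enzymes with overexpression (32.8% of all genes) and for 2 with knockout (11.7% of all genes).

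**Figure D1:**
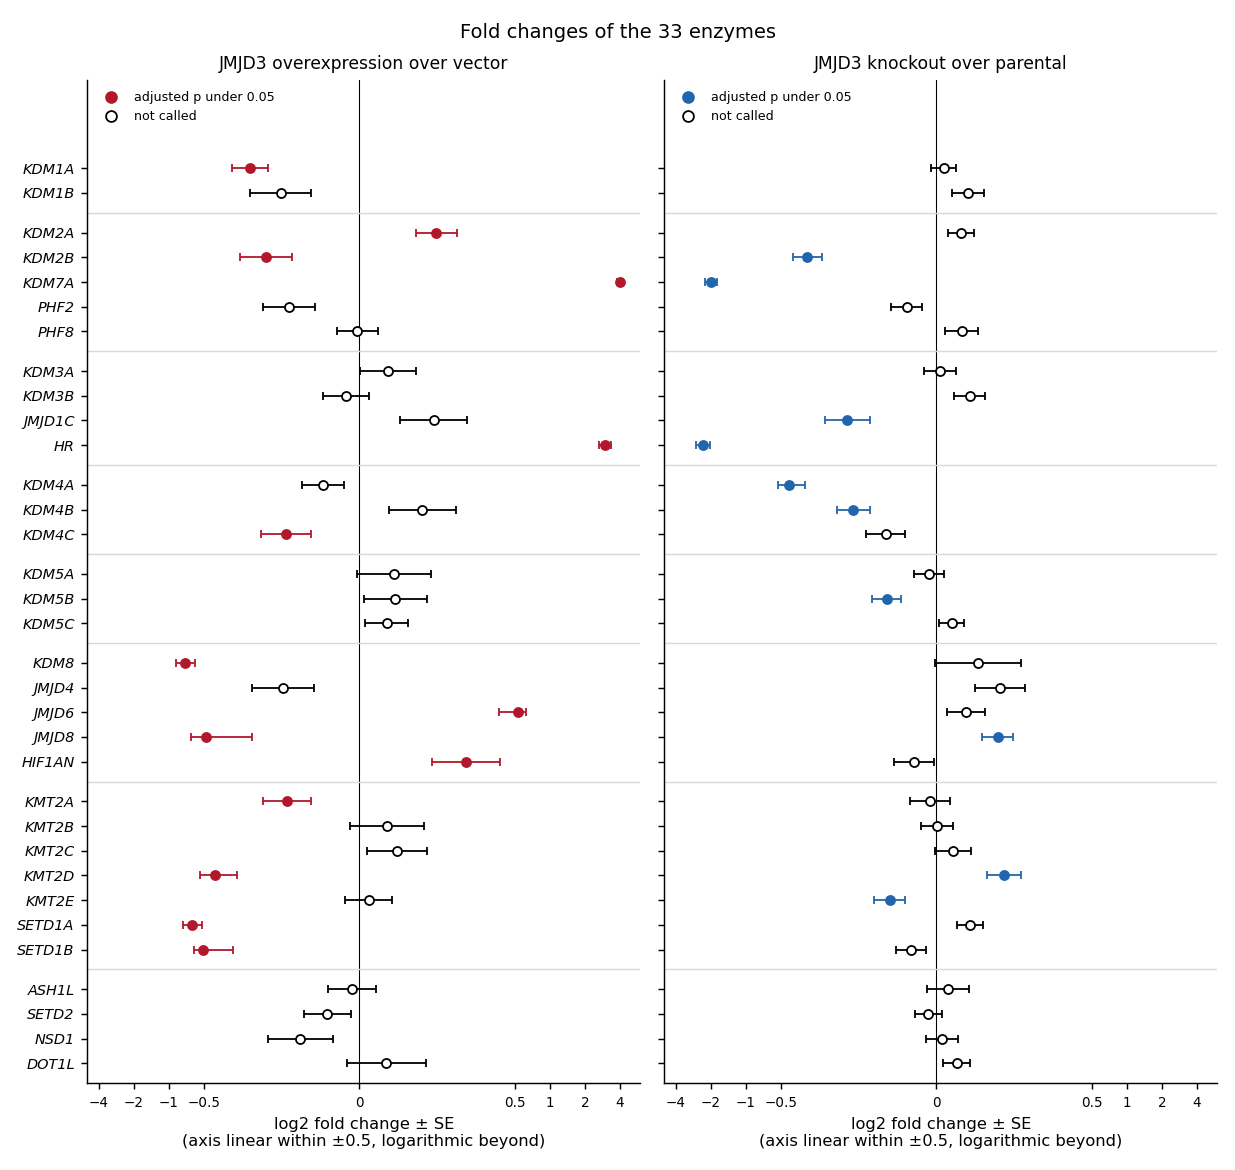
Log2 fold changes with standard errors of the 33 enzymes, by family from top to bottom, for JMJD3 overexpression over vector (left) and JMJD3 knockout over parental (right). Filled points passed an adjusted p of 0.05. KDM7A and HR stand far out on the right in the left panel and on the left in the right panel, and most other points lie within 0.5 of 0.

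The count of calls with overexpression rested on how replicates were treated. With the replicate number as a block, 29 of the 33 were called (14 up, 15 down, against 73.2% of all genes), and 28 without replicate 3 of either group (against 70.0% of all genes). With replicates 1 and 2 of a group summed, 6 were called (3 up, 3 down, against 28.5% of all genes). The 15 enzymes added by the block changed by 0.091 to 0.26 on the log2 scale, and ASH1L, KDM3B, KMT2E and PHF8 were the 4 not called with it. KDM7A, JMJD6 and SETD1A were called in all 18 alternatives, and HR in the 16 that tested it, since a filter on mean FPKM removed it from the other two. Of the 10 knockout calls, KDM2B and KDM4A were called in all 16 alternatives.

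KDM7A, a JmjC enzyme with a PHD finger that removes methyl groups from H3K9 and H3K27, showed the largest rise. In JMJD3-overexpressing libraries it was at 12.4, 11.98 and 17.8 CPM (364, 402 and 738 expected counts), against 0.789, 0.742 and 1.09 CPM in vector libraries (20, 22 and 40 expected counts). Every JMJD3-overexpressing library stood more than 10 CPM above every vector library. The log2 fold change was 3.98 ± 0.231 (adjusted p = 1.44e-05). In JMJD3 knockout libraries KDM7A was at 0.618, 0.619 and 0.492 CPM (18, 21 and 14 expected counts), against 2.16, 2.495 and 2.34 CPM in parental libraries (80, 87 and 103 expected counts). All 3 knockout libraries lay below all 3 parental libraries, with a log2 fold change of -2.005 ± 0.234 (adjusted p = 4.57e-06). The size of the change depended on the scale: on log2(FPKM + 1) it was as low as 1.29 with overexpression and -0.31 with knockout, and the knockout call was lost in that setting without a filter (adjusted p = 0.0812). The authors' deposited table gives KDM7A a log2 fold change of 2.63 with overexpression and -1.34 with knockout. KDM7A (ENSG00000006459) spans chr7:140084746-140177035 on the minus strand, and none of its exonic bases is shared with another annotated gene.

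HR, the hairless corepressor of nuclear receptors and a JmjC enzyme of the KDM3 group acting on H3K9, moved in the same directions. It was at 3.45, 3.99 and 3.26 CPM in JMJD3-overexpressing libraries (101, 134 and 135 expected counts), against 0.71, 0.506 and 0.191 CPM in vector libraries (18, 15 and 7 expected counts). The groups did not overlap, and vector replicate 3 was the lowest library. The log2 fold change was 2.99 ± 0.34 (adjusted p = 0.000321). In JMJD3 knockout libraries HR was at 0.206, 0.383 and 0.421 CPM (6, 13 and 12 expected counts), against 1.596, 1.32 and 2.25 CPM in parental libraries (59, 46 and 99 expected counts). Again no library of one group reached the other, and the log2 fold change was -2.34 ± 0.326 (adjusted p = 2.95e-05). On log2(FPKM + 1) with no filter it was 0.91 with overexpression and -0.47 with knockout (adjusted p = 0.0867). The authors' deposited table gives 2.26 and -1.36. KDM7A and HR were the only members that the authors' lists mark as significant, in each table. That mark does not follow the authors' FDR alone. KDM4A with knockout (log2 fold change -0.54, authors' FDR 3.74e-14) and SETD1A with overexpression (-0.62, authors' FDR 2.87e-06) were among those not marked. The 3 other members of the KDM3 group moved less. KDM3A and KDM3B were not called in either comparison (0.09 and -0.04 with overexpression, 0.01 and 0.11 with knockout), and JMJD1C was at 0.24 ± 0.109 with overexpression (adjusted p = 0.105) and fell by 0.29 ± 0.072 with knockout (adjusted p = 0.00613), a call lost in the 3 settings on FPKM.

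**Figure D2:**
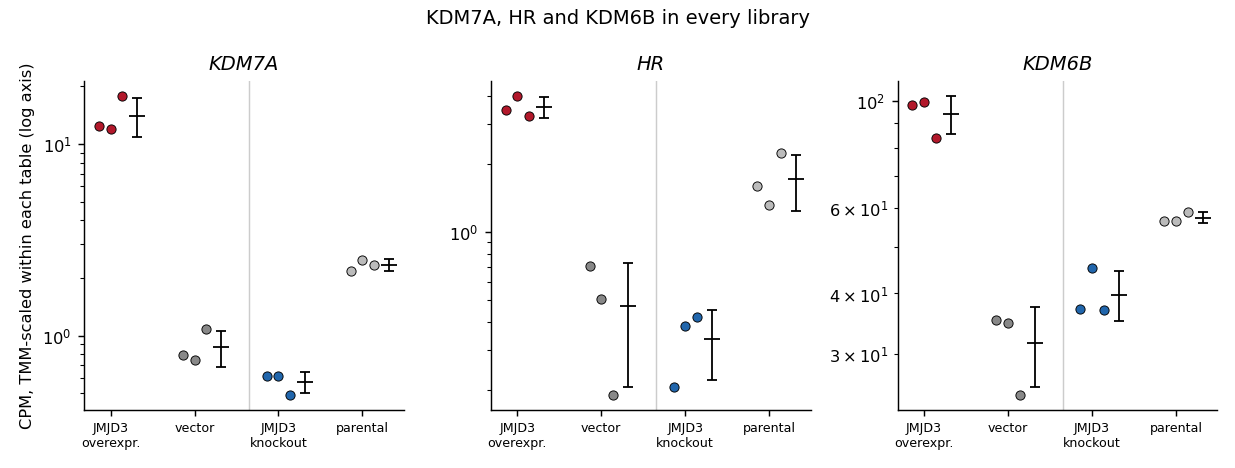
KDM7A, HR and the targeted KDM6B in each of the 12 libraries (points) with the mean and SD of each group (bars), in CPM on a log axis. For each gene the JMJD3-overexpressing libraries lie above the vector libraries and the JMJD3 knockout libraries below the parental libraries, with no overlap. CPM was scaled within each table, so levels left and right of the grey line come from separate scalings.

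The closest relatives of KDM7A did not share its change. PHF2 and PHF8, the other members of the KDM7 group, which act on H3K9, were not called with overexpression (-0.23 ± 0.084 and -0.01 ± 0.066, adjusted p = 0.0551 and 0.941) or with knockout (-0.10 and 0.08, adjusted p = 0.141 and 0.252). KDM2A and KDM2B remove methyl groups from H3K36 and bind unmethylated CpG islands, and KDM2B brings a variant Polycomb complex to them. KDM2A rose by 0.25 ± 0.066 with overexpression (adjusted p = 0.0157), a call lost in 7 settings, and was at 0.08 with knockout (adjusted p = 0.156). KDM2B was the only member called down in both comparisons. It was at 141, 143 and 131 CPM in JMJD3-overexpressing libraries, against 179, 178 and 154 CPM in vector libraries, and at 99.5, 89.6 and 93.1 CPM in JMJD3 knockout libraries, against 125, 124 and 127 CPM in parental libraries. Both controls lay wholly above, by a narrow margin in the overexpression table. The log2 fold changes were -0.30 ± 0.083 (adjusted p = 0.0185, lost in 8 settings) and -0.41 ± 0.046 (adjusted p = 3.04e-06, called in all settings), and their difference was not called (0.13 ± 0.096, adjusted p = 0.295).

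In the group of H3K4 methyltransferases, in which KMT2E is counted by homology, 4 of 7 members fell with JMJD3 overexpression and 0 rose. This was 57.1% of the group called, where 50.3% of all genes were called and 23.9% fell. SETD1A and SETD1B, the catalytic subunits of the complexes that place most promoter H3K4 methylation, fell by the most. SETD1A was at 120, 121 and 103 CPM in JMJD3-overexpressing libraries, against 193, 195 and 149 CPM in vector libraries, and SETD1B at 83.1, 82.6 and 70.1 CPM against 119, 118 and 99.2 CPM. Replicate 3 was the lowest library of its group for each gene, and no JMJD3-overexpressing library reached a vector library. The log2 fold changes were -0.64 ± 0.121 (adjusted p = 0.00353) and -0.51 ± 0.103 (adjusted p = 0.00481, and 0.0537 with replicates 1 and 2 summed). KMT2D, which with KMT2C methylates H3K4 at enhancers, was at 151, 156 and 145 CPM in JMJD3-overexpressing libraries, against 215, 216 and 195 CPM in vector libraries. It fell by 0.47 ± 0.071 (adjusted p = 0.0012), a call lost in 2 of the settings on FPKM. KMT2A, best known for its HOX targets, fell by 0.23 ± 0.078 (adjusted p = 0.0387), a call lost in 12 settings. KMT2A shares 18.9% of its exonic bases with AP001267.5 on the same strand or the antisense gene AP001267.3. KMT2B, KMT2C and KMT2E were not called (0.09, 0.12 and 0.03). In mean FPKM, SETD1A was at 17.4 in JMJD3-overexpressing, 27.0 in vector, 16.6 in knockout and 15.3 in parental cells. SETD1B was at 11.4, 16.2, 10.4 and 10.8 in that order, so vector cells stood highest for each. KMT2D was at 16.5, 19.8, 24.1 and 23.3 and KMT2A at 7.48, 7.85, 9.48 and 9.01, lowest in JMJD3-overexpressing cells. Whether vector or JMJD3-overexpressing cells had departed from the parental level was not tested. KMT2C is known to have near-identical partial copies elsewhere in the genome, and their share of its reads was not measured. Without TMM, on raw library size, 3 fell (the median over all genes shifted by 0.14), and 2 fell and 0 rose with replicates 1 and 2 summed. With the block 4 fell and 2 rose. In these settings, in that order, 48.8%, 28.5% and 73.2% of all genes were called.

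With JMJD3 knockout this family moved little. KMT2D was the only one that rose, at 195, 189 and 165 CPM in JMJD3 knockout libraries, against 156, 153 and 162 CPM in parental libraries. Knockout replicate 3 stood just above parental replicate 3, and the log2 fold change was 0.22 ± 0.055 (adjusted p = 0.00541). On FPKM the call was lost in all 3 settings, with means of 24.1 ± 3.50 FPKM in knockout cells and 23.3 ± 0.519 FPKM in parental cells (SD, n = 3 each). KMT2E, a SET protein without established activity on histones, fell by 0.15 ± 0.050 (adjusted p = 0.027), a call lost in 9 settings. SETD1A was at 0.11 ± 0.043 (adjusted p = 0.0585) and SETD1B at -0.08 ± 0.048 (adjusted p = 0.2). Summed over the 7 members as transcripts per length, the family was at 97.0, 97.6 and 95.9 FPKM in JMJD3-overexpressing libraries, against 113.1, 113.5 and 109.3 FPKM in vector libraries. It was at 92.6, 104.5 and 92.8 FPKM in JMJD3 knockout libraries, against 93.5, 94.0 and 98.0 FPKM in parental libraries. The first pair of groups was separate and the second overlapped.

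The KDM5 enzymes, which remove the same methyl groups from H3K4, showed no such fall. KDM5A, KDM5B and KDM5C were at 0.11 ± 0.120, 0.12 ± 0.102 and 0.09 ± 0.069 with overexpression (adjusted p = 0.472, 0.377 and 0.322), and their libraries overlapped with the vector libraries. With the block all 3 were called up, and with replicates 1 and 2 summed 0 were called. Of all genes, 73.2% were called with the block and 28.5% with the sums. With knockout KDM5B fell by 0.16 ± 0.047 (adjusted p = 0.0138), a call lost in 6 settings, and the other two were not called (-0.02 and 0.05). Summed, the 3 genes were at 129.7, 126.4 and 132.4 FPKM in JMJD3-overexpressing libraries, against 132.8, 119.9 and 116.1 FPKM in vector libraries. They were at 96.9, 100.2 and 95.3 FPKM in JMJD3 knockout libraries, against 94.2, 91.0 and 97.8 FPKM in parental libraries. Both pairs of groups overlapped.

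**Figure D3:**
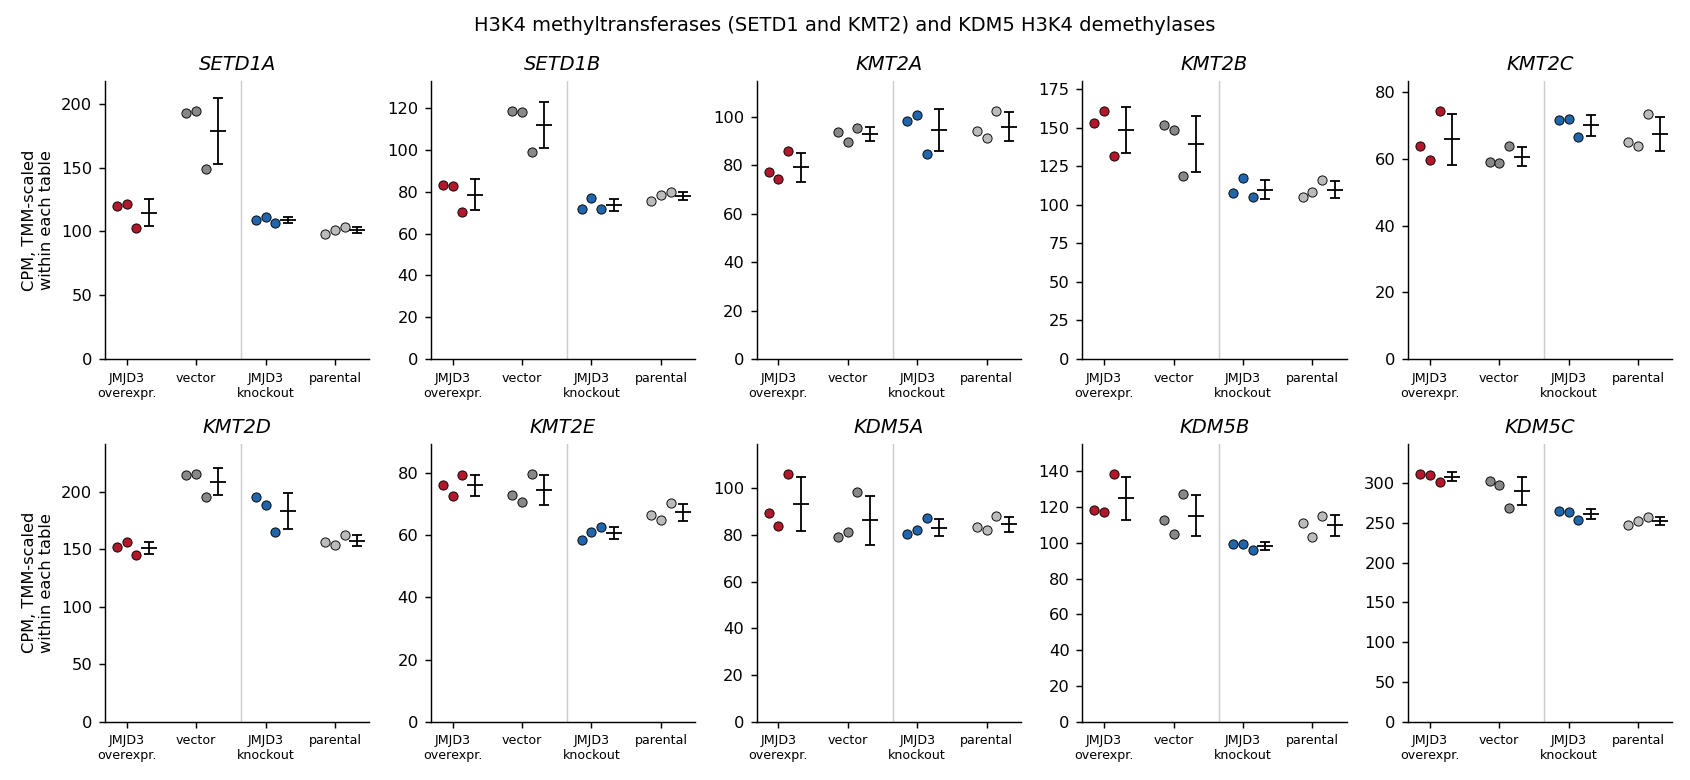
CPM of the 7 members of the H3K4 methyltransferase group and the 3 KDM5 demethylases in each library (points), with the mean and SD of each group (bars). SETD1A, SETD1B, KMT2A and KMT2D are lower in all JMJD3-overexpressing libraries than in any vector library, while the KDM5 libraries overlap. CPM was scaled within each table, so levels left and right of the grey line come from separate scalings.

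KDM1A, also called LSD1, removes lower methylation states of H3K4 within the CoREST complex. It was at 203, 200 and 203 CPM in JMJD3-overexpressing libraries, against 263, 256 and 255 CPM in vector libraries, and fell by 0.35 ± 0.059 (adjusted p = 0.00182, and 0.0612 with replicates 1 and 2 summed, the only setting in which the call was lost). With knockout it was at 0.02 ± 0.040 (adjusted p = 0.681), at 216, 211 and 219 CPM in knockout libraries against 216, 211 and 210 CPM in parental libraries. In mean FPKM, KDM1A was at 74.9 in JMJD3-overexpressing, 95.0 in vector, 79.5 in knockout and 78.9 in parental cells, so vector cells stood highest. KDM1B, the second flavin demethylase, was not called in either comparison (-0.25 and 0.10, adjusted p = 0.0674 and 0.136).

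The KDM4 enzymes act on H3K9 and H3K36, and the change here was in the knockout. KDM4A was at 56.4, 55.2 and 51.1 CPM in JMJD3 knockout libraries, against 73.5, 75.4 and 77.2 CPM in parental libraries. These groups were far apart for a change of this size, and the log2 fold change was -0.47 ± 0.051 (adjusted p = 1.82e-06, called in all settings). Of the exonic bases of KDM4A, 48.5% are shared with its antisense gene KDM4A-AS1 or with the overlapping AL451062.3, which lies on the same strand. Reads of KDM4A-AS1 there cannot be told apart in a library that does not keep strand. Those of AL451062.3 could not be told apart by strand in any library. KDM4B fell by 0.27 ± 0.053 (adjusted p = 0.000773, lost in the 3 settings on FPKM), and KDM4C was at -0.16 ± 0.063 (adjusted p = 0.0519). With overexpression KDM4C fell by 0.24 ± 0.080 (adjusted p = 0.0415), a call lost in 12 settings, and KDM4A and KDM4B were not called (-0.12 and 0.20). Summed, the family was at 31.4, 34.2 and 30.4 FPKM in JMJD3 knockout libraries, against 40.7, 42.1 and 40.9 FPKM in parental libraries, and at 40.0, 37.7 and 39.9 FPKM in JMJD3-overexpressing libraries, against 39.7, 37.2 and 40.4 FPKM in vector libraries. Only the knockout and parental groups were separate.

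Of the JmjC enzymes that act mainly as hydroxylases, 2 rose and 2 fell with overexpression. This was 80% of the group, where 50.3% of all genes were called. JMJD6, which hydroxylates lysines of splicing factors, was at 42.9, 39.7 and 37.5 CPM in JMJD3-overexpressing libraries, against 29.03, 28.2 and 25.5 CPM in vector libraries. The groups were separate by more than the spread within either, and it rose by 0.54 ± 0.087 (adjusted p = 0.00162). KDM8, also known as JMJD5, was at 3.76, 3.82 and 4.15 CPM in JMJD3-overexpressing libraries, against 6.67, 7.32 and 5.56 CPM in vector libraries. It fell by 0.73 ± 0.133 (adjusted p = 0.00289), the largest fall among the 33. The call was lost only on log2(FPKM + 1) without a filter (adjusted p = 0.0863). In mean FPKM, KDM8 was at 2.76 in JMJD3-overexpressing, 3.95 in vector, 3.03 in knockout and 2.77 in parental cells, so vector cells stood highest. KDM8 shares 14.5% of its exonic bases with the antisense gene AC109449.1. HIF1AN, the asparagine hydroxylase that inhibits hypoxia-inducible factor, rose by 0.34 ± 0.109 (adjusted p = 0.0318), a call lost in 5 settings. JMJD8, a protein of the endoplasmic reticulum, was at 101, 94.7 and 75.2 CPM in JMJD3-overexpressing libraries, against 134, 143 and 104 CPM in vector libraries, and fell by 0.49 ± 0.149 (adjusted p = 0.0265), a call lost in 7 settings. In JMJD3 knockout libraries it was at 94.1, 93.9 and 86.9 CPM, against 76.2, 83.8 and 79.7 CPM in parental libraries. This was a rise of 0.20 ± 0.050 (adjusted p = 0.00512), a call lost on log2(FPKM + 1) without a filter (adjusted p = 0.0876). JMJD8 shares 37.4% of its exonic bases with STUB1 on the other strand. JMJD4, which hydroxylates a translation release factor and shares 53.8% of its exonic bases with SNAP47, was not called (-0.25 and 0.21, adjusted p = 0.0751 and 0.0583), nor were JMJD6, KDM8 and HIF1AN with knockout (0.10, 0.13 and -0.07).

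The methyltransferases of H3K36 and H3K79 were not called in either comparison. ASH1L, SETD2 and NSD1, which act on H3K36, were at -0.02 ± 0.077, -0.10 ± 0.076 and -0.19 ± 0.104 with overexpression and at 0.04 ± 0.068, -0.03 ± 0.043 and 0.02 ± 0.051 with knockout. DOT1L, the H3K79 methyltransferase, was at 0.09 ± 0.127 and 0.07 ± 0.044. With the block, SETD2, NSD1 and DOT1L passed in the overexpression comparison (adjusted p of 0.00516, 9.21e-07 and 0.00875), while ASH1L did not (0.573). With replicates 1 and 2 summed 0 of the 4 were called. Of all genes, 73.2% were called with the block and 28.5% with the sums.

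Whether an enzyme answered differently to gain and to loss of JMJD3 was tested on all 12 libraries, as the overexpression effect minus the knockout effect. The difference was called for 15 of the 33 (45.5%), 7 up and 8 down, where 51.4% of 14960 genes were called. KDM7A had the largest difference, 5.999 ± 0.301 (adjusted p = 2.7e-09), followed by HR at 5.35 ± 0.491 (adjusted p = 9.8e-07). KDM8 (-0.85 ± 0.189), SETD1A (-0.73 ± 0.129), JMJD8 (-0.68 ± 0.163) and KMT2D (-0.67 ± 0.096) had the largest negative differences. JMJD1C (0.54), KDM4B (0.48), JMJD6 (0.45), HIF1AN (0.43) and KDM4A (0.37) made up the rest of those above 0. JMJD4 (-0.44), SETD1B (-0.41), KDM1A (-0.36) and KDM1B (-0.34) made up the rest of those below 0. A size of 0.5 or more was reached by 7 of the 15, where 38.7% of all genes were called at that size. On raw library size, without TMM, 12 differences were up and 5 down, where 5004 of all genes were up and 2630 down. Among the individual calls, KDM7A and HR rose with overexpression and fell with knockout, JMJD8 and KMT2D fell and rose, KDM2B fell in each, 14 enzymes were called in one comparison only, and 14 were called in neither: ASH1L, DOT1L, JMJD4, KDM1B, KDM3A, KDM3B, KDM5A, KDM5C, KMT2B, KMT2C, NSD1, PHF2, PHF8 and SETD2.

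Levels between enzymes were compared per transcript length, as FPKM. KDM1A, KDM5C and JMJD8 led in each group, with means of 74.9, 92.5 and 70.4 FPKM in JMJD3-overexpressing cells and 95.0, 87.1 and 102.5 FPKM in vector cells. They were at 79.5, 66.8 and 73.0 FPKM in JMJD3 knockout cells, against 78.9, 62.9 and 62.4 FPKM in parental cells. In every group 30 of the 33 were at 5 FPKM or more. The other 3 were KDM8, KDM7A and HR. KDM7A averaged 2.05 ± 0.308 FPKM in JMJD3-overexpressing cells and 0.248 ± 0.0403 FPKM in vector cells, and 0.0656 ± 0.00546 FPKM in JMJD3 knockout cells against 0.320 ± 0.102 FPKM in parental cells (SD, n = 3 each). Even at its highest it stayed below every member except HR by this scale. HR averaged 1.24 ± 0.175 FPKM in JMJD3-overexpressing cells and 0.197 ± 0.112 FPKM in vector cells, and 0.202 ± 0.0162 FPKM in JMJD3 knockout cells against 0.674 ± 0.242 FPKM in parental cells (SD, n = 3 each). In the ranking by mean FPKM, 20 of 32 neighbouring pairs overlapped in their libraries in JMJD3-overexpressing cells, 24 in vector cells, 21 in JMJD3 knockout cells and 19 in parental cells, so the order in the middle of the range is not resolved.

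**Figure D4:**
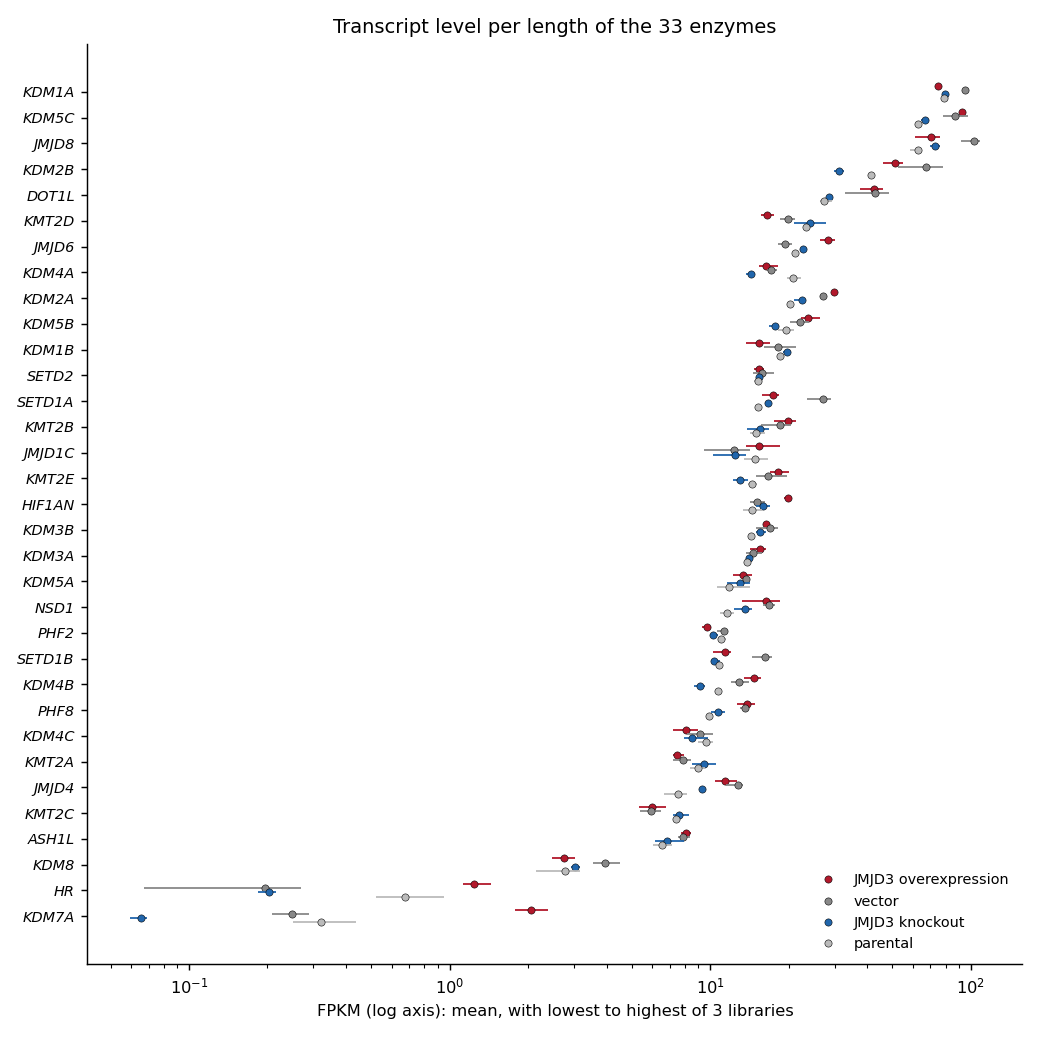
Mean FPKM of the 33 enzymes on a log axis, with a line from the lowest to the highest of 3 libraries, for the 4 groups, ordered by the parental mean. Most enzymes lie between 5 and 100 FPKM with groups close together. HR and KDM7A lie at the bottom and are highest in JMJD3-overexpressing cells.

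Partner subunits of these enzymes were described from lists of the pathway. Of 15 subunits of the SETD1 and KMT2 complexes, 2 rose and 7 fell with overexpression, and 5 rose and 1 fell with knockout. This was 60% and 40% of the list, where 50.3% and 37.8% of all genes were called. WDR5, a core subunit of all these complexes, was at -0.73 ± 0.067 with overexpression (adjusted p = 0.000107), HCFC1 at -0.73 ± 0.091 (adjusted p = 0.000497) and CXXC1, the CpG-binding subunit of the SETD1 complexes, at -0.73 ± 0.114 (adjusted p = 0.00139). All 3 were called in all settings. With knockout CXXC1 rose by 0.37 ± 0.043 (adjusted p = 4.77e-06) and MEN1, the menin subunit of the KMT2A and KMT2B complexes, by 0.34 ± 0.048 (adjusted p = 3.29e-05), while PSIP1 fell by 0.25 ± 0.046 (adjusted p = 0.000406). On log2(FPKM + 1) without a filter the knockout calls of CXXC1 and PSIP1 were lost. The list's median was -0.27 with overexpression and 0.13 with knockout, against -0.0031 and -0.0022 over all genes. With replicates 1 and 2 summed the overexpression count was 2 rises and 3 falls, and with the block 3 rises and 11 falls. Of all genes, 28.5% and 73.2% were called in these settings.

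Of 12 genes of the KDM1A and CoREST complex, 3 rose and 2 fell with overexpression (41.7%, against 50.3% of all genes). The zinc finger gene ZNF217 rose by 1.35 ± 0.131 (adjusted p = 0.000152), the corepressor RCOR2 by 2.12 ± 0.285 (adjusted p = 0.000641), though only to 0.879 CPM, against 0.201 CPM in vector cells, and with a value of -0.10 on log2(FPKM + 1) without a filter (adjusted p = 0.884), and MTA2 fell by 0.46 ± 0.070 (adjusted p = 0.00121). With knockout 1 rose and 6 fell (58.3%, against 37.8% of all genes). PHF21A, the subunit that reads unmethylated H3K4, was at 35.1 CPM in JMJD3 knockout cells against 61.7 CPM in parental cells and fell by 0.82 ± 0.060 (adjusted p = 2.08e-08). With overexpression it rose by 0.40 ± 0.076 (adjusted p = 0.00339, lost in the 3 settings on FPKM). RCOR3 fell by 0.27 ± 0.057 (adjusted p = 0.00161) and GSE1 by 0.20 ± 0.048 (adjusted p = 0.00332), both calls lost in the 3 settings on FPKM.

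**Figure D5:**
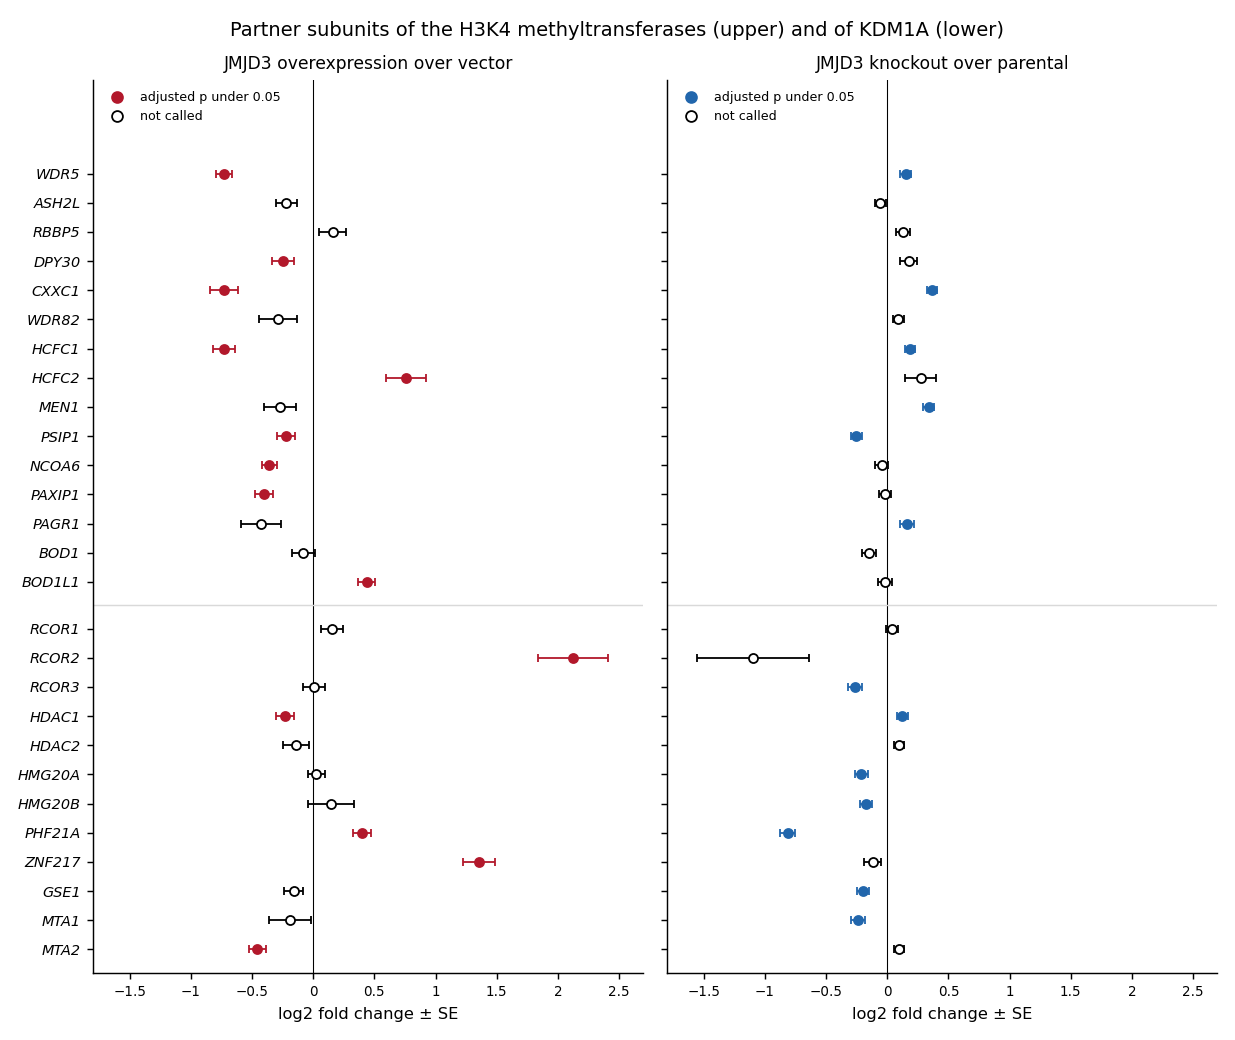
Log2 fold changes with standard errors of 15 subunits of the SETD1 and KMT2 complexes (upper) and 12 genes of the KDM1A and CoREST complex (lower), for JMJD3 overexpression over vector (left) and JMJD3 knockout over parental (right). Filled points passed an adjusted p of 0.05. WDR5, CXXC1 and HCFC1 lie at -0.73 on the left and above 0 on the right, and PHF21A lies at 0.40 on the left and -0.82 on the right.

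The remaining lists held changes in each direction. The shares called with overexpression, against 50.3% of all genes, were 62.5% of the DOT1L partners and 50% of the H3K9 methyltransferases. They were 37.5% of the SMYD, SETD and NSD groups and 50% of the further JmjC genes. The shares called with knockout, against 37.8% of all genes, were 50%, 16.7%, 62.5% and 33.3% of these lists in that order. Of 8 elongation partners of DOT1L, 3 rose and 2 fell with overexpression, among them ELL2 (0.64 ± 0.107), AFF4 (0.56 ± 0.119) and AFF1 (-0.50 ± 0.081), and 1 rose and 3 fell with knockout, led by MLLT6 (-0.30 ± 0.049), MLLT3 (-0.59 ± 0.116) and AFF4 (-0.26 ± 0.077). The knockout call was lost in 5 settings for AFF4, among them without parental replicate 3 and without knockout replicate 1, and in the 3 on FPKM for MLLT3. Of 6 H3K9 methyltransferases, SUV39H1 (-0.51 ± 0.073), SETDB2 (-0.64 ± 0.094) and EHMT2 (-0.46 ± 0.095) fell with overexpression, 0 rose, and SETDB1 alone was called with knockout (-0.17 ± 0.042, lost in the 3 settings on FPKM). Of 8 measured methyltransferases of the SMYD, SETD and NSD groups, SMYD2 (-0.93 ± 0.069), SMYD5 (-0.80 ± 0.078) and SETMAR (-0.74 ± 0.099) fell with overexpression and the same 3 rose with knockout by 0.20, 0.18 and 0.33 (calls lost in 5, 8 and 5 settings), while SETD7 (-0.39 ± 0.054) and WHSC1L1 (-0.19 ± 0.050) fell. Of 6 measured further JmjC genes, JARID2, the catalytically inactive Polycomb partner, rose with overexpression by 0.66 ± 0.068 (adjusted p = 0.000178), KDM4D rose by 0.86 ± 0.209 to 1.22 CPM, against 0.674 CPM in vector cells, and MINA fell by 0.68 ± 0.083 (adjusted p = 0.000424). With knockout HSPBAP1 fell by 0.31 ± 0.074 and MINA rose by 0.16 ± 0.054, a call lost in 9 settings.

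JmjC enzymes use oxygen and 2-oxoglutarate as substrates, and genes of 2-oxoglutarate metabolism and of the hypoxia pathway were listed too. Of 12 genes that make or use 2-oxoglutarate or 2-hydroxyglutarate, 0 rose and 5 fell with overexpression, and 3 rose and 3 fell with knockout. This was 41.7% and 50% of the list, where 50.3% and 37.8% of all genes were called. IDH3B and IDH3A, subunits of the mitochondrial isocitrate dehydrogenase that makes 2-oxoglutarate, fell by 0.63 ± 0.064 and 0.51 ± 0.090 with overexpression, and rose by 0.28 ± 0.043 and 0.20 ± 0.050 with knockout, where the call of IDH3A was lost in the 3 settings on FPKM. GOT2 fell by 0.58 ± 0.088 with overexpression, and GOT1 by 0.37 ± 0.064 with knockout. With the block 9 of the 12 fell with overexpression and 1 rose, where 73.2% of all genes were called. Of 6 measured genes of the hypoxia pathway, EPAS1 rose with overexpression by 2.21 ± 0.315 (adjusted p = 0.000899), to 1.64 CPM against 0.341 CPM in vector cells, and EGLN1 fell by 0.24 ± 0.070, a call lost in 10 settings. With knockout VHL fell by 0.30 ± 0.052 (adjusted p = 0.000243), ARNT by 0.18 ± 0.045 (lost in the 3 settings on FPKM) and EPAS1 by 1.29 ± 0.458 (adjusted p = 0.0351, lost in 8 settings). In this hypoxia list 33.3% were called with overexpression and 50% with knockout, where 50.3% and 37.8% of all genes were called.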

How the data were processed

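Libraries were made with a TruSeq RNA kit, which does not keep strand, per the labels' protocols. Per the submitters' processing notes, RSEM, edgeR, TopHat2 2.0.4, CASAVA 1.8 and the build GRCh38 were used; their roles for each column are not given in the sources used here. Per the file headers, each deposited table holds a count and an FPKM value per gene and library, a log2 fold change and p-values. The count columns are expected counts multiplied by a factor per library (0.772 to 1.197), as read from the values: divided by it, 92.9% to 94.1% of deposited values up to 1000 were whole within 0.02. Expected counts were recovered by that division and rounded. The deposited FPKM values served for levels and 3 alternatives. The authors' log2 fold changes are quoted only by name.

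The 6 libraries of a comparison were fitted without the others in edgeR 4.0.16 under R 4.3.3 (default low-count filter, TMM, robust quasi-likelihood test, Benjamini-Hochberg over all genes tested), and the difference on all 12. A gene was called at an adjusted p under 0.05. A standard error is the size of the log2 fold change over the square root of its F value. The fits were tested on simulated data, in which libraries were independent and all genes had the same spread. Those data lack the likeness of replicates 1 and 2 seen in the overexpression table, so they cannot show how it affects the calls. Alternatives used other scalings, no filter, DESeq2 1.42.0, limma 3.58.1 on log2(FPKM + 1) or log2(FPKM + 0.1), the replicate block, replicates 1 and 2 summed, and each library left out. In the overexpression table same-numbered libraries deviated together (correlations of 0.554, 0.572 and 0.833). Crossing numbers 1 and 2 gave correlations just as high (0.596 and 0.535). The values therefore set replicate 3 apart in each group but do not pair replicates 1 and 2 by number, and the labels state no pairing. In 13 lines of that table values were missing, and these were left out. Positions and overlaps are from GENCODE 29. Members and lists were chosen with earlier results of these data known. Values in every library were to be given for called members with a log2 fold change of 0.5 or more in size, and of each partner list up to 3 genes by p are named. The per-library values of KMT2D, KDM2B, KDM1A, KDM4A and JMJD8, and some partner genes, were added after their values were seen.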

Additional observations from a re-analysis of the deposited data

How the results depend on the processing

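No called enzyme changed sign under any alternative. Of the 14 overexpression calls 4 held under each alternative that tested them (18, or 16 for HR), of the 10 knockout calls 2, and of the 15 calls on the difference 11. With overexpression, the count of enzymes called was 29 with the replicate block (14 up, 15 down), 28 without replicate 3 of either group (13 up, 15 down) and 6 with replicates 1 and 2 summed (3 up, 3 down). The shares of all genes called in these settings were 73.2%, 70.0% and 28.5%. limma gave 8 on log2(FPKM + 1) (3 up, 5 down), 9 on log2(FPKM + 0.1) (3 up) and 8 without a filter (4 down). Of all genes, 40.5%, 40.6% and 14.7% were called in these limma settings. Upper-quartile scaling gave 5 down, and library size alone 8 up and 5 down. These scalings called 49.2% and 48.8% of all genes, with more up (4389 and 4788) than down (2660 and 2202). Leaving out 1 library gave 8 to 15 (3 to 6 up, 5 to 10 down), where 40.2% to 52.2% of all genes were called. With knockout, limma gave 3, 3 and 2 (1, 1 and 0 up, and 2 down in each), the replicate block 9, and leaving out 1 library 8 to 12 (2 to 3 up, 6 to 9 down). Of all genes, limma called 22.8%, 23.1% and 7.19%, the block 32.4%, and leaving out 1 library 30.0% to 36.7%. In the knockout table same-numbered libraries did not deviate together (correlations of 0.015, -0.297 and -0.131), so they share only a number. For the difference, library size alone gave 12 up and 5 down, the replicate block 11 up, and leaving out 1 library 14 to 18 (6 to 10 up, 7 to 11 down). Of all genes, 51.0%, 61.6% and 45.9% to 54.0% were called in these settings. The cause of these shifts was not tested. Enzymes that were not called changed sign as follows. With overexpression, the opposite sign was found under library size alone for ASH1L (0.12), KDM3B (0.099), KDM4A (0.028), PHF8 (0.14) and SETD2 (0.041). With overexpression, the opposite sign was found under limma on log2(FPKM + 0.1) for ASH1L (0.043), DOT1L (-0.0054), KDM5A (-0.049) and PHF8 (0.021). With overexpression, the opposite sign was found under limma on log2(FPKM + 1) with a filter for ASH1L (0.039), DOT1L (-0.0057), KDM5A (-0.046) and PHF8 (0.020). With overexpression, the opposite sign was found under limma on log2(FPKM + 1) without a filter for ASH1L (0.039), DOT1L (-0.0057), KDM5A (-0.046) and PHF8 (0.020). With overexpression, the opposite sign was found with replicates 1 and 2 summed for PHF8 (0.010). With overexpression, the opposite sign was found under upper-quartile scaling for ASH1L (0.063), KDM3B (0.043) and PHF8 (0.081). With overexpression, leaving out a library gave ranges across 0 for ASH1L (-0.079 to 0.033), DOT1L (-0.024 to 0.17), KDM3B (-0.096 to 0.0028), KMT2B (-0.0032 to 0.17), KMT2E (-0.0071 to 0.096) and PHF8 (-0.021 to 0.016). With knockout, the opposite sign was found under library size alone for KMT2B (-0.0056). With knockout, the opposite sign was found under limma on log2(FPKM + 0.1) for HIF1AN (0.14), KDM5A (0.15), KMT2A (0.070) and SETD2 (0.0034). With knockout, the opposite sign was found under limma on log2(FPKM + 1) with a filter for HIF1AN (0.13), KDM5A (0.14), KMT2A (0.064) and SETD2 (0.0032). With knockout, the opposite sign was found under limma on log2(FPKM + 1) without a filter for HIF1AN (0.13), KDM5A (0.14), KMT2A (0.064) and SETD2 (0.0032). With knockout, the opposite sign was found without a low-count filter for KMT2B (-0.0064). With knockout, leaving out a library gave ranges across 0 for ASH1L (-0.014 to 0.12), HIF1AN (-0.13 to 0.00087), KDM3A (-0.0070 to 0.047), KDM5A (-0.056 to 0.017), KMT2A (-0.059 to 0.055), KMT2B (-0.035 to 0.054) and NSD1 (-0.021 to 0.069). For the difference, the opposite sign was found under library size alone for ASH1L (0.090), KDM3B (0.00037), KDM4C (0.080), PHF2 (0.023), PHF8 (0.064) and SETD2 (0.076). For the difference, the opposite sign was found under upper-quartile scaling for ASH1L (0.017), KDM4C (0.0074) and SETD2 (0.0023). For the difference, leaving out a library gave ranges across 0 for ASH1L (-0.14 to 0.0053), DOT1L (-0.088 to 0.11), KDM3A (-0.00062 to 0.17), KDM5C (-0.0046 to 0.077), KMT2B (-0.0041 to 0.16) and KMT2C (-0.054 to 0.15).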
